A study of Homo sapiens with 16 samples.

Results

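Messenger RNAs with very long coding sequences were followed through sucrose gradients made from the established human cell line 293S, a relative of HEK293. The set comprises 10 named mRNAs that were looked up by gene symbol, and all 10 were present among the 13148 genes of the deposited table. Cells had received 1 mM sodium arsenite for 30 minutes or were left untreated as the control, and total RNA of 8 gradient fractions from each was sequenced, 16 libraries in all and 1 per fraction of each gradient. Arsenite is a thiol-reactive poison that sets off the cellular stress response. A deposited value states which share of a gene's RNA in 1 gradient was found in that fraction, so that the 8 shares of a gene sum to 100%. Neither transcript levels nor read depths can be read from shares. There are no replicates, hence the differences below were not checked against replicate spread and no p-value is given.

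A sucrose gradient separates RNA by the size of the particle it travels in, and an mRNA carrying many ribosomes forms a larger particle than one carrying few. A long reading frame has room for many ribosomes and takes long to translate, and arsenite lowers translation initiation in mammalian cells through phosphorylation of eIF2 alpha. Whether fraction 1 was the top or the bottom of the gradient is not stated in the labels. The 10 genes encode 4 ubiquitin ligases (HUWE1, UBR4, HERC1 and HERC2), 2 ATPases of the AAA family (DYNC1H1 and MDN1), 3 scaffold proteins of the cytoskeleton, cell membrane and nuclear envelope (AHNAK, MACF1 and SYNE2) and the membrane protein polycystin 1 (PKD1). In the GENCODE annotation their proteins run from 4303 residues for PKD1 to 7592 for MACF1, and their mRNAs from 14138 nt to 24319 nt. The architecture of the genes differs widely, since AHNAK has 5 exons in its annotated transcript and SYNE2 has 116. None of the 10 was listed at 0 in any library.

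With arsenite, fraction 5 held the largest share of all 10 mRNAs, from 31.1% for AHNAK to 55.3% for MDN1, with a median of 45.4%. In the control, fraction 5 held between 11.2% (HERC1) and 19.6% (PKD1) of them, with a median of 15.8%. Fraction 5 held more of each of the 10 mRNAs with arsenite than in the control, and the share of all genes with this direction was not counted. Across all genes the median share in this fraction went the other way, at 10.9% with arsenite and 19.1% in the control. Fraction 5 was the largest fraction with arsenite for 8.43% of all genes, against 10 of the 10 giant mRNAs. When the libraries were rescaled by median-of-ratios size factors, which by construction give the typical gene like values in all libraries, fraction 5 remained the largest for 4 of the 10 and was the largest for 14.8% of all genes, and fraction 6 or 7 was the largest for the other members.

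**Figure D1:**
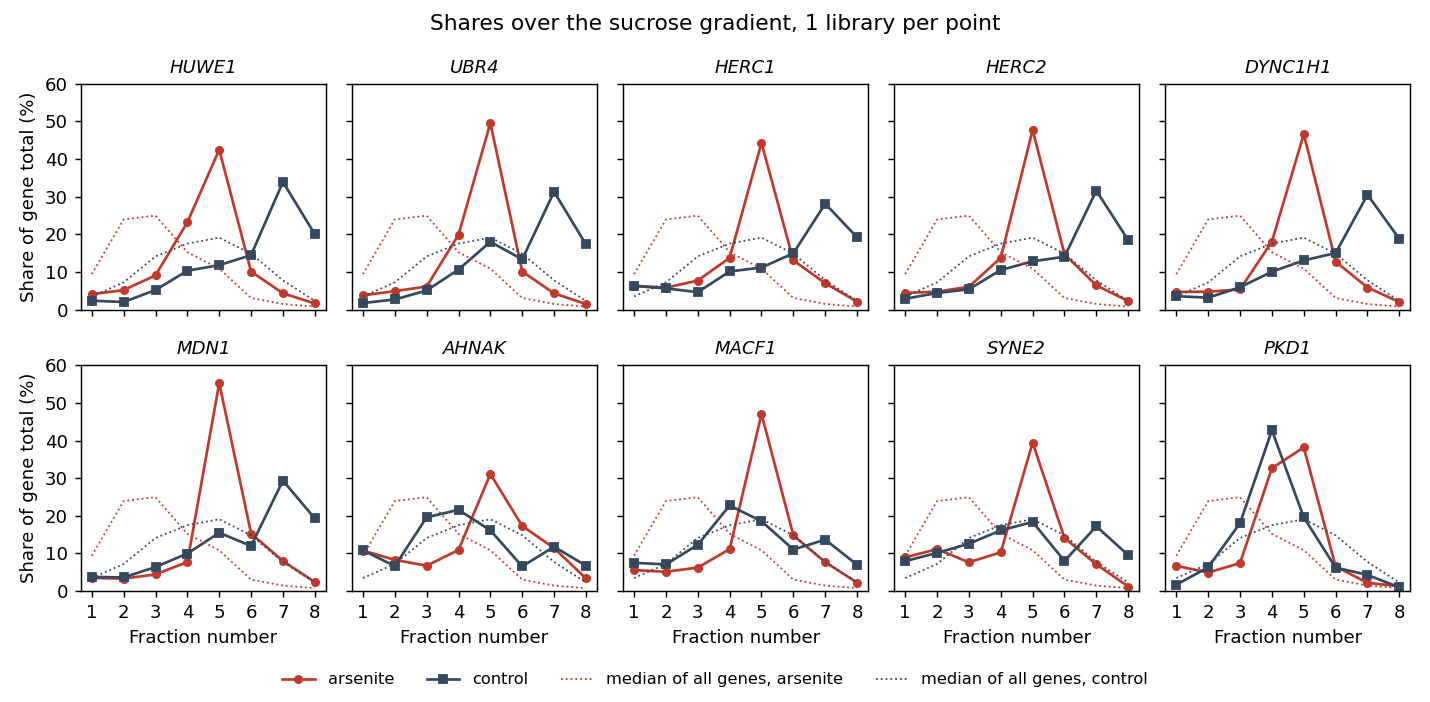
Share of each gene's total (%) against fraction number for the 10 giant mRNAs, with arsenite (red circles) and in the control (dark squares), 1 library per point; dotted lines are the medians of all genes. With arsenite every panel peaks in fraction 5, whereas in the control 6 of the 10 peak in fraction 7.

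The share in fractions 5 to 8 was large with arsenite, with a median of 65.9% over the 10 mRNAs, against 74.8% in the control. For the median gene the same share was 16.4% with arsenite and 53.9% in the control. With arsenite 9 of the 10 mRNAs had 50% or more of their total there, all but PKD1 at 48.2%, a level reached by 2.34% of all genes. In the control 8 of the 10 were at or above 50%, as were 58.6% of all genes. The arsenite share amounted to between 73.0% (HUWE1) and 155% (PKD1) of the control share, with a median of 99.4%, whereas the median over the 13135 genes with any control share in these fractions was 32.7%. The gap to the median gene depended on the scaling. With size factors the share in fractions 5 to 8 had a median of 87.6% with arsenite and 80.9% in the control for the members, and of 47.7% and 50.96% for all genes. All 10 members, and 44.9% of all genes, then had 50% or more there with arsenite, and the arsenite share was a median of 112% of the control share for the members and 94.5% for all genes. In the deposited shares, the share in fractions 5 to 8 was higher with arsenite than in the control for AHNAK, MACF1, PKD1, SYNE2 and MDN1. For the 4 ubiquitin ligases and DYNC1H1 it was lower. How many of all genes went either way was not counted, and the upper quartile of their difference was −19.6 percentage points. With size factors DYNC1H1 (87.4% against 84.1%), HERC1 (87.8% against 78.6%) and HERC2 (89.8% against 84.2%) were higher with arsenite too. Only HUWE1 (82.5% against 87.8%) and UBR4 (85.2% against 87.3%) were then lower. The count at or above 50% depended on the window. In fractions 6 to 8 alone the median share of the members was 22.3% with arsenite and 61.3% in the control, against 5.397% and 29.005% for the median gene. None of the 10 reached 50% there with arsenite, and 0.0076% of all genes did.

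**Figure D2:**
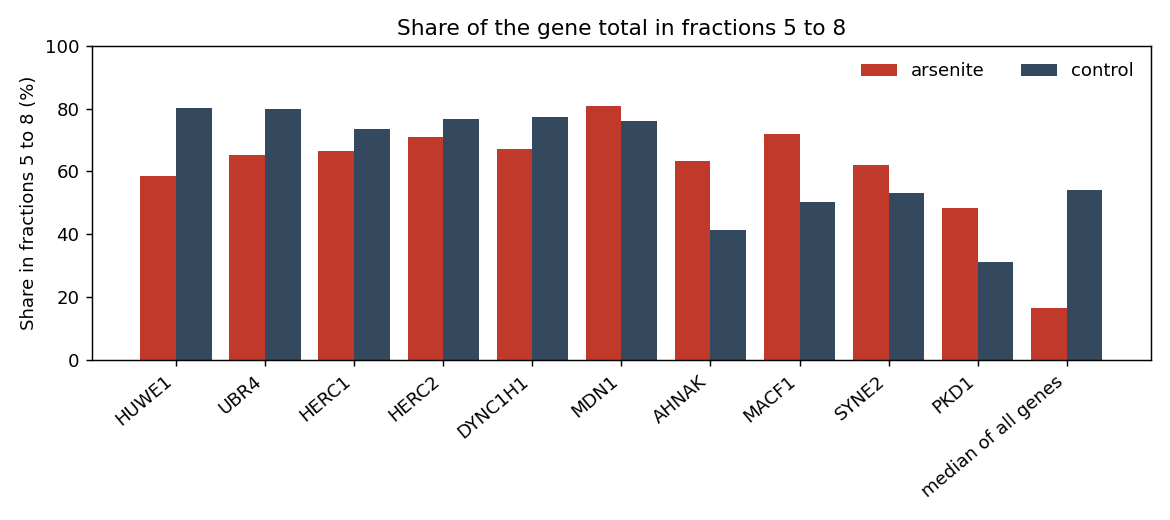
Bars give the share of each gene's total in fractions 5 to 8 (%) with arsenite (red) and in the control (dark), each summed over 4 libraries, with the median of all genes at the right. With arsenite the 10 mRNAs lie between 48.2% and 81.0%, and the median gene lies at 16.4%.

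Position, the mean fraction number weighted by the shares, covered a narrower range for the 10 mRNAs with arsenite than in the control, where AHNAK, MACF1, SYNE2 and PKD1 lay apart from the other 6. It ran from 4.26 (PKD1) to 4.98 (MDN1) with arsenite, a range of 0.72 fractions, and from 4.13 (PKD1) to 6.06 (HUWE1) in the control, a range of 1.93. The median gene lay at 3.10 with arsenite and at 4.54 in the control. In the arsenite gradient each of the 10 lay above at least 97.5% of all genes, while in the control the scaffold proteins and PKD1 lay above between 24.6% (PKD1) and 58.9% (SYNE2) of them. Pairs of members were compared by the distance between their profiles, which is the sum of absolute differences in share divided by 2. The median distance over the 45 pairs was 14.6 percentage points with arsenite and 27.4 in the control, and 30 of the 45 pairs lay closer together with arsenite. MACF1 and HERC2, 32.3 points apart in the control, differed by 3.20 points with arsenite. The ligases and ATPases are the 6 members that shared fraction 7 as their largest in the control. Of their 15 pairs, 12 lay farther apart with arsenite, with a median distance of 9.93 points against 6.30 in the control. Because their control values set this group, their closeness in the control follows in part from the grouping. No conclusion is drawn from the order of these 2 distances.

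**Figure D3:**
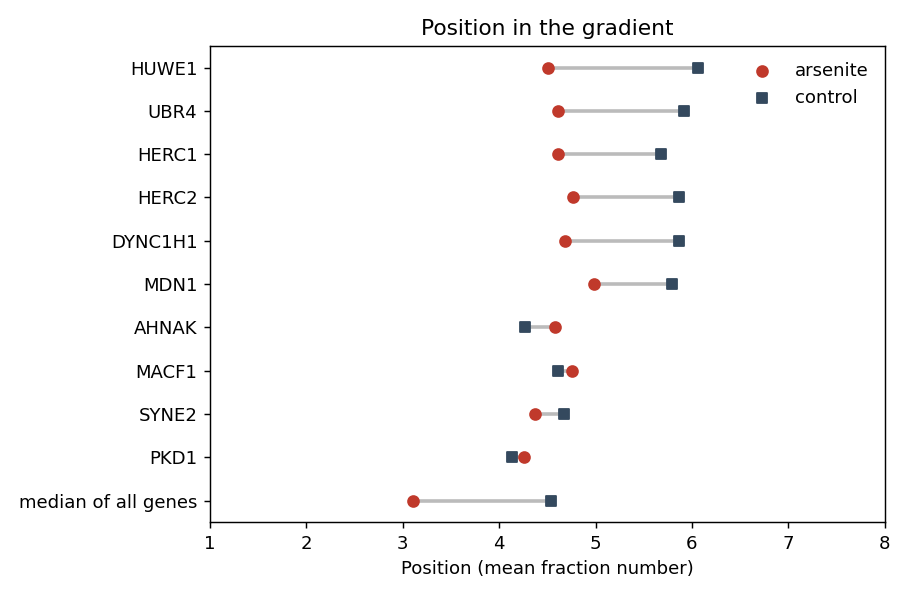
Position (mean fraction number) of each mRNA with arsenite (red circles) and in the control (dark squares), joined by a line, with the median of all genes at the bottom. The arsenite values span 4.26 to 4.98 and the control values 4.13 to 6.06.

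The shift, arsenite position minus control position, had a median of −0.94 fractions over the members, against −1.46 over all genes. It was above 0 for AHNAK (0.32), MACF1 (0.15) and PKD1 (0.12), a direction that 1.73% of all genes showed. With size factors the shift was above 0 for 4 members and for 41.2% of all genes, and the median gene shifted by −0.23. The relative shift subtracts the shift of the median gene. A gene met the rule for a relative shift when this value was 0.5 fractions or more in either direction. Its sign also had to stay the same when any 1 fraction number was dropped in both gradients. By this rule 5 of the 10 had a relative shift to higher fraction numbers (AHNAK 1.77, MACF1 1.60, PKD1 1.58, SYNE2 1.15 and MDN1 0.64), against 23.6% of all genes. None had a relative shift to lower ones, against 24.0%. For SYNE2 and MDN1 the shift itself was below 0 (−0.30 and −0.82), so they fell by less than the median gene. With size factors 4 members met the rule toward higher numbers, against 28.7% of all genes, and 1 toward lower ones, against 26.4%. The median relative shift of the members was 0.52 in the deposited shares and −0.17 with size factors. All 4 members that lay below position 5 in the control met the rule, but MDN1 was the 1 of the other 6 that did so. The shift subtracts the control position, and member positions spanned 0.72 fractions with arsenite against 1.93 in the control. A low control position thus goes with a high shift by construction, and the split says nothing further about the members. MDN1 fell below the threshold without fraction 1 (0.44), 2 (0.46) or 6 (0.29) and by the fraction where the running sum reaches 50% (0.49), and its sign turned with size factors (−0.21).

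The 4 ubiquitin ligases, which attach ubiquitin to proteins and so mark many of them for degradation, all had fraction 7 as their largest in the control and less than 7% of their RNA in it with arsenite. HUWE1, a ligase with a HECT domain, had shares of 4.08%, 5.18%, 9.08%, 23.2%, 42.5%, 10.1%, 4.33% and 1.61% in fractions 1 to 8 with arsenite, against 2.35%, 1.99%, 5.19%, 10.3%, 11.8%, 14.5%, 33.9% and 20.0% in the control. Its position was thus 4.50 with arsenite and 6.06 in the control, the largest drop of the 10 (shift −1.56). The relative shift of HUWE1 was −0.10 in the deposited shares and −0.90 with size factors. UBR4, a ligase that recognises destabilising N-terminal residues, had shares of 3.77%, 4.89%, 6.11%, 19.9%, 49.5%, 10.1%, 4.30% and 1.45% in fractions 1 to 8 with arsenite, against 1.73%, 2.67%, 5.06%, 10.6%, 18.0%, 13.3%, 31.3% and 17.3% in the control. Fractions 7 and 8 together thus held 5.75% of UBR4 with arsenite and 48.6% in the control, and its position was 4.61 and 5.92. Its relative shift was 0.15, or −0.81 with size factors, the opposite direction.

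HERC1 and HERC2 carry a HECT domain together with domains related to RCC1, a regulator of the small GTPase Ran. Their positions were 4.61 and 4.77 with arsenite, against 5.67 and 5.87 in the control. HERC2, known for its part in the DNA damage response, had shares of 4.41%, 4.75%, 6.05%, 13.7%, 47.7%, 14.7%, 6.41% and 2.25% in fractions 1 to 8 with arsenite, against 2.87%, 4.39%, 5.38%, 10.5%, 12.8%, 14.03%, 31.6% and 18.4% in the control. For HERC1 they were 6.34%, 5.80%, 7.70%, 13.7%, 44.3%, 13.1%, 6.98% and 2.10% with arsenite, against 6.27%, 5.61%, 4.62%, 10.1%, 11.2%, 14.9%, 28.1% and 19.2% in the control. Fractions 1 and 2 of HERC1 differed by under 0.5 percentage points between the gradients, and the largest differences lay in fractions 5, 7 and 8. Both missed the threshold, with relative shifts of 0.40 for HERC1 (−0.12 with size factors) and 0.36 for HERC2 (−0.40). Both passed it without fraction 3 (0.61 for HERC1 and 0.51 for HERC2), without fraction 4 (0.55 and 0.50) and without fraction 8 (0.81 and 0.70). GENCODE names 9 pseudogene copies of HERC2, so reads of HERC2 could have been split or shared with them and its value is uncertain.

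Both AAA ATPases peaked in fraction 7 in the control. DYNC1H1, the heavy chain of the cytoplasmic dynein motor, had shares of 4.68%, 4.74%, 5.35%, 18.1%, 46.6%, 12.7%, 5.85% and 1.99% in fractions 1 to 8 with arsenite, against 3.55%, 3.15%, 5.92%, 10.1%, 13.0%, 15.0%, 30.5% and 18.8% in the control. It lay at 4.69 with arsenite and 5.87 in the control, and its relative shift was 0.27, or −0.47 with size factors and 0.64 without fraction 8. Its profile and that of HERC2 were the closest pair in the control, 2.80 percentage points apart. MDN1, or midasin, pulls assembly factors off the precursor of the large ribosomal subunit. Its shares in fractions 1 to 8 were 3.50%, 3.33%, 4.44%, 7.74%, 55.3%, 15.3%, 8.0% and 2.41% with arsenite, against 3.79%, 3.63%, 6.41%, 10.0%, 15.5%, 12.01%, 29.4% and 19.3% in the control. MDN1 held the highest share of the members in fraction 5 with arsenite and the lowest share in each of fractions 1 to 4, and only 20 of the 13148 genes lay at a higher position. Its share in fractions 5 to 8 was 81.0% with arsenite and 76.2% in the control.

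The mRNAs of the 3 scaffold proteins had broad control profiles, whose largest fraction held 21.6% (AHNAK), 22.7% (MACF1) or 18.4% (SYNE2). AHNAK, a very large protein of repeated segments at the cell periphery, had shares of 10.8%, 8.31%, 6.75%, 10.9%, 31.1%, 17.3%, 11.4% and 3.38% in fractions 1 to 8 with arsenite, against 10.9%, 6.66%, 19.6%, 21.6%, 16.2%, 6.57%, 11.8% and 6.77% in the control. The largest differences in percentage points lay in fractions 3 and 4, which held less with arsenite, and 5 and 6, which held more, while fractions 1 and 7 differed by under 0.5 percentage points. MACF1, a spectraplakin that links actin filaments to microtubules, had shares of 5.60%, 5.13%, 6.27%, 11.2%, 47.1%, 14.8%, 7.70% and 2.28% in fractions 1 to 8 with arsenite, against 7.53%, 7.09%, 12.3%, 22.7%, 18.6%, 11.1%, 13.7% and 7.01% in the control. MACF1 thus had less in each of fractions 1 to 4 and in 7 and 8 with arsenite, and more in fractions 5 and 6. For SYNE2, which encodes nesprin 2 and ties the nucleus to the cytoskeleton, the shares were 8.97%, 11.1%, 7.66%, 10.3%, 39.4%, 14.1%, 7.12% and 1.23% with arsenite, against 7.97%, 10.1%, 12.6%, 16.1%, 18.4%, 8.02%, 17.2% and 9.55% in the control. SYNE2 kept a tail at low numbers in both gradients, with 27.8% in fractions 1 to 3 with arsenite and 30.7% in the control.

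PKD1, a large receptor-like membrane protein mutated in polycystic kidney disease, stood apart from the other members in the control. Its shares in fractions 1 to 8 were 6.72%, 4.94%, 7.45%, 32.7%, 38.2%, 6.55%, 2.20% and 1.29% with arsenite, against 1.71%, 6.34%, 18.1%, 42.7%, 19.6%, 6.25%, 4.31% and 1.01% in the control. Fraction 4 thus held 42.7% in the control, where the other 9 had between 10.0% and 22.7%. PKD1 and HUWE1 were the most distant pair in the control, at 57.4 percentage points, and lay 12.1 points apart with arsenite. GENCODE lists 3 pseudogene copies of PKD1, and 4.20% of its annotated exon bases overlap TSC2 on the opposite strand, so its value is uncertain. TSC2 itself lay at 3.46 with arsenite and 5.49 in the control.

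Compared fraction by fraction, the members and the median gene differed in where mRNA was gained and lost. Log2 ratios of arsenite to control shares were taken with 1 percentage point added to both shares, so changes of small shares are understated. In fraction 5 the ratio was between 0.90 (AHNAK) and 1.90 (HERC1) for the members and −0.72 for the median gene. In fraction 2 the members had a median of 0.11, against 1.50 for the median gene, and all 10 lay below the median gene in fractions 2 and 3. In fraction 6 the member median was 0.06, against −1.85 for the median gene. In fraction 7 the members ranged from −2.71 (HUWE1) to −0.04 (AHNAK), with a median of −1.81 against −1.86 for the median gene. Which of these medians was lower depended on the pseudocount, with −1.93 for the members and −2.44 for all genes at 0.1, and −1.15 and −0.63 at 10. Fraction 8 fell further for the members (−2.58) than for the median gene (−0.89). In fraction 8 the 4 ligases, DYNC1H1 and MDN1 had ratios from −3.01 to −2.58, and PKD1 alone was above 0, at 0.19. With size factors the member median was 2.13 in fraction 5 and 1.83 in fraction 6, and in fraction 7 it changed sign to 0.29.

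**Figure D4:**
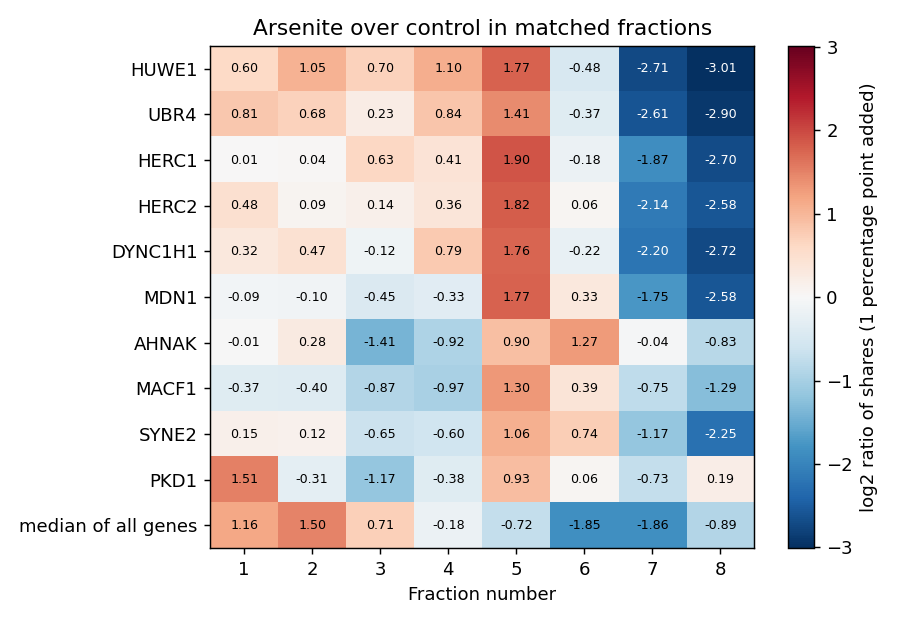
Log2 ratio of the arsenite share over the control share in each matched fraction, after adding 1 percentage point, for the 10 mRNAs and the median of all genes (bottom row); red is higher with arsenite. The fraction 5 column is positive in the 10 member rows, from 0.90 to 1.90, and −0.72 in the bottom row.

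In the control, fraction 7 was the largest fraction for 6 of the 10 members, the ligases and ATPases, and for 14.9% of all genes. With size factors it was the largest for none of the members and for 19.4% of all genes, and these 6 members peaked in fraction 8, so the classes below hold for the deposited shares alone. Of the 1959 genes that peaked there, 22.3% had fraction 5 as their largest with arsenite, and their median share in fractions 5 to 8 with arsenite was 25.8%. The 6 members in this class had 58.5% (HUWE1) to 81.0% (MDN1). AHNAK, MACF1 and PKD1 peaked in fraction 4 in the control, as did 2706 genes in all, of which 12.2% had fraction 5 as the largest with arsenite. SYNE2 peaked in fraction 5 in both gradients, which 3.70% of the 3760 genes with that control peak did.

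With arsenite, position was higher in each longer class of coding length across the whole table. Genes with proteins under 250 residues had a median position of 2.41 with arsenite and 4.23 in the control, those of at least 1000 but under 2000 residues 3.66 and 4.91, and those of at least 2000 but under 3000 residues 4.02 and 5.17. For 111 genes of at least 3000 residues other than the members, the medians were 4.25 with arsenite and 5.07 in the control. Fraction 5 was the largest fraction with arsenite for 1.22% of genes in the shortest class and for 83.8% of these 111. Coding length thus moved with the values that set the members apart from the median gene, and its part in them was not tested. One annotated isoform was used per gene, which need not be the one made in 293S cells.

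**Figure D5:**
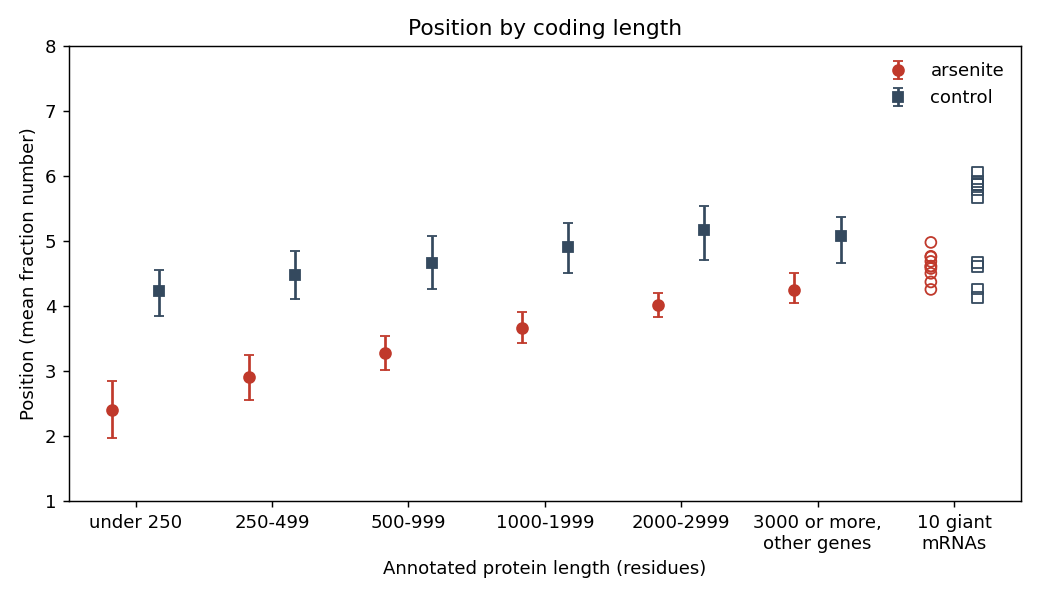
Median position with quartiles over genes in classes of annotated protein length, with arsenite (red circles) and in the control (dark squares); open symbols are the 10 giant mRNAs. The arsenite median is 2.41 in the shortest class and 4.25 in the longest, and the control medians are 4.23 and 5.07.

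The table held 43 other genes with proteins at least as long as that of PKD1, and their arsenite profiles resembled those of the members. Fraction 5 was the largest with arsenite for 37 of the 43, against 8.43% of all genes. With arsenite 29 had 50% or more in fractions 5 to 8, against 2.34% of all genes. The rule was met toward higher numbers by 29, against 23.6%, and toward lower ones by none, against 24.0%. Over the 43, the median share in fractions 5 to 8 was 57.6% with arsenite and 60.5% in the control, against 65.9% and 74.8% for the members. The median relative shift of the 43 was 0.81, or 0.57 with size factors. For the members it was 0.52, or −0.17 with size factors, so the 2 sets then differed in sign. Only 31 of the 43 had no value of 0, and the median relative shift of these 31 was 0.65. Fraction 5 was the largest with arsenite for 28 of the 31, and 20 had 50% or more in fractions 5 to 8. The rule was met toward higher numbers by 18 of the 31. Among the 31 the highest relative shifts belonged to RYR2, a calcium release channel (1.57), PCLO, a presynaptic scaffold (1.55), and DNHD1, a relative of the dynein heavy chains (1.52). The lowest were those of LRP1 (−0.28) and LRP2 (−0.23), both endocytic receptors, and HSPG2, the basement membrane proteoglycan perlecan (0.04). LRP1 had 42.4% in fractions 5 to 8 with arsenite and 79.0% in the control, a larger loss than that of any member. With size factors LRP1 and LRP2 lay at −0.87 and −0.68, HSPG2 at −0.45.

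Nearest to the mean profile of the members over the 16 libraries were VPS13D, a lipid transfer protein, MYCBP2, a ubiquitin ligase, MKI67, the Ki-67 proliferation antigen, SMG1, a kinase of nonsense-mediated decay, and UTRN, or utrophin. Their distances were 4.51 to 6.85 percentage points, averaged over both gradients, and their proteins have 3256 to 4640 residues. Nearest to AHNAK alone was IGSF10, 12.7 points away, followed by DST (13.0) and KIAA0754 (13.1). Distances to a single gene and to a mean profile are not alike. The nearest genes of the other single members were not sought. KIAA0754 is listed as a synonym of MACF1 in RefSeq but has a row of its own in the table, so reads of the same locus may stand in both rows. It lay at 4.42 with arsenite and 4.72 in the control, against 4.76 and 4.61 for MACF1.

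Partners in the same complexes, most of them with far shorter proteins, had median shares in fractions 5 to 8 with arsenite that were below those of all members and close to the median gene (16.4%). Moves of partners and relatives are relative to the median gene: no gene of these lists had a shift above 0 in the deposited shares. Over all genes, 23.6% met the rule toward higher numbers and 24.0% toward lower ones. Of 26 measured dynein and dynactin genes, which work with DYNC1H1, 2 had a relative shift to higher numbers and 11 to lower ones by the rule, and their median share in fractions 5 to 8 was 11.4% with arsenite and 56.7% in the control. Their median relative shift was −0.45, and −0.61 with size factors, where the arsenite share was 37.6% against 47.7% for all genes. CAPZB, an actin-capping subunit that is also part of dynactin, had the lowest relative shift (−1.49), and the light chain DYNLL2 the highest (0.60). Among 23 factors of large ribosomal subunit assembly, the process in which MDN1 acts, none had a relative shift to higher numbers and 15 to lower ones. Their median share was 14.7% with arsenite and 70.0% in the control, and their median relative shift was −0.71. With size factors these were 46.8%, 69.4% and −0.88. EBNA1BP2 had the lowest relative shift (−1.44, and −2.26 with size factors), SPATA5 the highest (0.06, and −0.24 with size factors).

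Relatives of the members spanned a wide range of lengths and positions. Of 31 other HECT and UBR ligases 6 had a relative shift to higher numbers and 5 to lower ones. Neither count exceeded the share over all genes (23.6% and 24.0%). The values ran from HACE1 (0.88, and 1.67 with size factors) to HECTD3 (−1.15). Against 2.34% of all genes, 2 of these ligases had at least 50% in fractions 5 to 8 with arsenite. These were BIRC6 (57.4%) and HECTD4 (67.8%), named after their values were seen, which are the 2 longest of that list with 4857 and 4416 residues. Of 17 plakins, spectrins and nuclear envelope linkers, 9 had a relative shift to higher numbers, against 23.6% of all genes, and 3 to lower ones, against 24.0%. The median relative shift of the 17 was 0.55, or 0.03 with size factors. DST, the plakin most like MACF1, lay at 4.40 with arsenite and 4.54 in the control (relative shift 1.31), and LMNA, which encodes lamins A and C, at 3.11 and 5.97 (−1.41). AHNAK2, the close relative of AHNAK, had 74.1% in fractions 5 to 8 with arsenite and 60.5% in the control, with a relative shift of 1.20 (0.71 with size factors). ANXA2, a membrane-binding partner of AHNAK, had 6.06% and 78.9%, with a relative shift of −1.95. PKD2, the channel partner of PKD1, lay at 3.68 with arsenite and 4.15 in the control, a smaller drop than that of the median gene (relative shift 0.98, and 1.51 with size factors), with 31.4% in fractions 5 to 8 with arsenite and 40.1% in the control.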

How the data were processed

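The authors deposited 1 table of 13148 genes, in which the 16 library columns hold a fraction, the share of a gene's total in each of 8 gradient fractions, and 3 score columns hold the mean fraction number in each gradient and its difference. Per the file headers, values refer to exons of RefSeq genes, and per the labels' protocols total RNA was extracted with Trizol and a method named NSR. Per the submitters' processing notes, hg19 was the genome build. Not given in the sources used here are the aligner, the counting, the use of strand, the gene filter and how fractions were weighted relative to one another. Read depth is unknown. Groups came from the sample titles.

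Recomputed positions matched the authors' deposited score columns within 1.5e-14. The members and gene lists were chosen with earlier results of these data known, and the classes of members by control peak were formed after their values were seen. All comparisons are descriptions. The rule for relative shifts was tested on simulated profiles with planted shifts. That simulation did not model how fractions were weighted, so it says nothing about the effect of size factors. Members, the 3 highest and 3 lowest of the other long genes with no 0, the extremes of each partner list among genes with no 0, and the nearest profiles were named by a fixed rule. Lengths come from GENCODE release 29 with 1 protein-coding transcript per gene, the principal isoform, or the longest where the principal one was below 50% of its coding length. Of the table's genes 13050 (99.3%) matched, 733 of them through older symbols. GENCODE 29 uses a build other than hg19, so no coordinates are given. Alternatives were size factors, 1 percentage point added to shares, each fraction left out, the fraction where the running sum reaches 50%, thresholds of 0.25 and 1, other windows, pseudocounts of 0.1 and 10, and other length limits. Analyses used Python 3.11.15, numpy 2.4.6 and pandas 2.3.3.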

Additional observations from a re-analysis of the deposited data

How the results depend on the processing

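Under 12 alternatives AHNAK, MACF1, PKD1 and SYNE2 kept the sign of their relative shift and their side of the threshold. Size factors moved most values: the median relative shift was −0.17, the opposite sign, and the median shift −0.39. The rule was then met toward higher numbers by 4 members, against 28.7% of all genes, and toward lower ones by 1, against 26.4%. With size factors the median share in fractions 5 to 8 was 87.6% with arsenite for the members, 82.9% for other long mRNAs and 47.7% for all genes. Fraction 5 was then largest with arsenite for 4 members, against 14.8% of all genes, and fraction 7 in the control for 0, against 19.4%. Member median log2 ratios with size factors were −1.07, −1.32, −0.89, 2.13, 1.83, 0.29 and −1.65 in fractions 1, 2, 3, 5, 6, 7 and 8, and MDN1 turned to −0.21. The cause was not tested. The median relative shift was under the threshold with 1 percentage point added (0.48), without fraction 1 (0.33), 2 (0.33), 5 (0.33) or 6 (0.18), and at the point of 50% of the total (0.43). Without fraction 3 or 4, 7 members met the rule toward higher numbers, against 26.3% and 26.0% of all genes. Without fraction 8, 8 members met the rule toward higher numbers, against 23.4% of all genes. Without fraction 5, 1 member did toward lower ones, against 24.4%. Member median shares were 82.3% with arsenite and 84.8% in the control for fractions 4 to 8, and 22.3% and 61.3% for fractions 6 to 8, where 0 members reached 50% with arsenite. With a pseudocount of 10 the log2 medians were −1.15 in fraction 7 and −1.23 in fraction 8, against −0.63 and −0.19 for all genes. For other genes of at least 2000 residues the median relative shift was 0.45 and the arsenite share 44.2%. No paired analysis was possible because each treatment and fraction has 1 library. Depth is not given, so its limits on these shares are unknown.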
